A study of Mus musculus with 18 samples.

Results

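The Zfp zinc finger genes are mouse genes whose symbol is Zfp followed by a number, most of them coding for proteins of the C2H2 zinc finger type. They were chosen by their FPKM values, the authors' measure of expression per gene length and sequencing depth, as those that reached an FPKM of 1 in 9 or more of the 18 libraries, with Zfp36 left out. The rule selected 150 of the 373 genes with such a symbol, out of 55450 genes in all. Of the 18 libraries 12 were made without apigenin, so a gene present without apigenin and lost with it met the rule, while a gene present only with apigenin could not.

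The cells were bone marrow-derived macrophages (BMDMs) of wild type (WT) and CD38 knockout (CD38KO) mice of either sex on the C57BL6/J background, and their age is not stated in the sources. The 6 groups of 3 biological replicates were WT + apigenin, WT + MSU + apigenin, WT + MSU, CD38KO + MSU, CD38KO non-treated and WT non-treated. All cells were grown for 7 days with L929 conditioned medium and primed for 24 h with GM-CSF at 20 ng/ml, so the non-treated cells were primed cells as well. MSU (monosodium urate, the crystal of gout) was added at 0.2 mg/ml for 6 h and apigenin, a plant flavonoid that inhibits the NAD-consuming enzyme CD38, at 25 µM. CD38KO cells came from knockout mice, and no CD38KO library with apigenin was analysed here. Titles and treatment tags contradict each other on which 3 of the apigenin libraries also received MSU, and the titles were followed.

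A C2H2 finger is a short loop in which a pair of cysteines and a pair of histidines hold a zinc ion, and a row of fingers reads a stretch of DNA or binds RNA. Many of these proteins also carry a KRAB domain, which recruits the corepressor Trim28 (KAP1) and with it Setdb1 and heterochromatin proteins to silence genes and retroelements. The KRAB zinc finger genes form 1 of the largest families of transcription factors in mammals and lie in clusters of related copies. Their messages are commonly scarce, and many are known to be short-lived.

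Facts of the whole series that touch these genes were as follows. Total counts were 51058336 to 83209648 per library, and Cd38 itself was at 0.301 to 1.17 CPM (counts scaled to a common library size by the TMM method) in the CD38KO libraries and at 18.4 to 93.0 CPM in the WT libraries. The mitochondrial share of counts was 9.60% to 13.3% with apigenin and 3.50% to 6.61% without. The summed CPM of 8 macrophage markers was 45139 to 60552 with apigenin and 10694 to 22818 without. Most of that sum was Lyz2. Cd14 went the other way under MSU, with means of 239 CPM in WT + MSU + apigenin and 800 CPM in WT + MSU. All the other listed macrophage markers had higher means with apigenin in both WT comparisons. Libraries of replicates 1 and 2 stood apart from replicate 3 in all WT groups: 9 neutrophil markers summed to 155 to 333 CPM in the 8 WT libraries of replicates 1 and 2 and to 8.40 to 25.2 CPM in the 4 of replicate 3, against 8.86 to 23.2 CPM in CD38KO. Ly6g, which defines neutrophils, was at 0 to 0.0730 CPM in all libraries. The sum of 6 fibroblast markers was 1426 to 6669 CPM, 571 to 1819 CPM and 82.1 to 315 CPM in these 3 sets of libraries, and that of 6 endothelial markers 33.0 to 128 CPM, 13.9 to 34.3 CPM and 3.66 to 15.3 CPM. Both sums also moved with apigenin: fibroblast markers were at 1518 to 6669 CPM in the apigenin libraries and 571 to 3807 CPM in the other WT libraries, endothelial markers at 33.0 to 128 CPM and 13.9 to 67.2 CPM, and each apigenin library was above the library of the same replicate number and MSU state without apigenin. Most of the fibroblast sum was Col1a1 and Col1a2. Mean CPM went the other way for Pdgfra (11.0 against 15.3 alone, 11.0 against 17.2 under MSU). It did so too for the endothelial marker Kdr (3.18 against 5.16, 4.23 against 12.75) and, under MSU, for Lum (1.93 against 2.85). All the other listed markers of both types had higher means with apigenin in both WT comparisons. The sum of 6 B and T cell markers was 3.50 to 8.04 CPM with apigenin and 0.893 to 6.77 CPM without. Among them Cd79a averaged 1.52 CPM in WT + apigenin and 2.36 CPM in WT + MSU + apigenin, against at most 0.045 CPM in the other groups, and Ms4a1, Cd3e and Cd3g did not exceed 0.0899 CPM. Counts of called genes were therefore also made with WT replicates 1 and 2 alone and with WT replicate 3 alone. The part of the marker and mitochondrial differences in the apigenin results was not tested. In bulk RNA, fewer cells of a type and less RNA per cell cannot be told apart.

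RefSeq (GRCm38.p6) gave the sequence before the start of 125 of the 150 Zfp genes, in 155 windows of 250 bases, against 32851 windows of all genes. The windows of 5 genes described below are printed 5′ to 3′ on the strand of the gene, since 3 of them fell with apigenin alone and 2 were called higher in at least 1 apigenin comparison. They were picked after their values were seen. Capitals mark the GC box (GGGCGG), the CCAAT box (CCAAT) and the ETS core (CCGGAAG) on either strand, where a CCAAT box can overlap its own reverse copy. Zfp189 (chr4:49520926-49521175, + strand), Zfp553 (chr7:127232811-127233060, + strand) and Zfp59 (chr7:27838334-27838583, + strand) were among the 6 genes lowest under apigenin alone. Zfp106 (chr2:120563860-120564109, - strand) and Zfp414 (chr17:33628842-33629091, + strand) were called higher under apigenin in at least 1 comparison.
Zfp189: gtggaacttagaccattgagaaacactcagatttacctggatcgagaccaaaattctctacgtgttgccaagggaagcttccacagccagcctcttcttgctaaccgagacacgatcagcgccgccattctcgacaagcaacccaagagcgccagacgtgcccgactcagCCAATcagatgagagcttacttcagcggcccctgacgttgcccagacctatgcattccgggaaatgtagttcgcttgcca
Zfp553: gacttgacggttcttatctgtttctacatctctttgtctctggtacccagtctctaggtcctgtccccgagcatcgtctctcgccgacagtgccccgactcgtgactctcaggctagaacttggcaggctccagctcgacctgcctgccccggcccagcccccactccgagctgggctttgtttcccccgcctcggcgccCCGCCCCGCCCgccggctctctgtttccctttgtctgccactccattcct
Zfp59: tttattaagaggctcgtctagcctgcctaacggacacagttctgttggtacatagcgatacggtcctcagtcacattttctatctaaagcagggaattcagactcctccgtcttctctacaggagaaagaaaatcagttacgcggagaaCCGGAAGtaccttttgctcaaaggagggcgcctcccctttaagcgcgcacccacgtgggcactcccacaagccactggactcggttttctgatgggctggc
Zfp106: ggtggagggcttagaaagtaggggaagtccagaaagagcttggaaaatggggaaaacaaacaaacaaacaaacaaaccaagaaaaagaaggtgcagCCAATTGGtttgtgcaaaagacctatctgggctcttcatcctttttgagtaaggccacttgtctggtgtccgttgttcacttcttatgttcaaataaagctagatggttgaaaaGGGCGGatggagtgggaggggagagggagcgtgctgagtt
Zfp414: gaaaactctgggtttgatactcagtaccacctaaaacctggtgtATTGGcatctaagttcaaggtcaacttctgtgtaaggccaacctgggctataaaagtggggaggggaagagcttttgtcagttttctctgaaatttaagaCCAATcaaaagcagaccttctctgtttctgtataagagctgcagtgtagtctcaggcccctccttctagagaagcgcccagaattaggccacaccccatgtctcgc

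These windows hold 14 CpG in Zfp189, 17 in Zfp553 and 13 in Zfp59, and 3 in Zfp106 and 2 in Zfp414, so the 3 that fell were richer in CpG than the 2 that rose. Over the whole set this did not separate the genes, since the median was 13 CpG per window in the 76 genes called lower in both apigenin comparisons and 15 in the other 49. The windows of the Zfp genes as a group held a median of 13 CpG, against 6 over all windows. The GC box was in 52.9% of their windows and in 32.7% of all windows, the CCAAT box in 43.2% and 33.9%, and the ETS core in 14.8% and 6.91%. The TATA box (TATAAA) went the other way, with 4.52% of Zfp windows and 12.4% of all windows. For the CRE (TGACGTCA), the E-box (CACGTG) and the AP-1 site (TGACTCA) the shares were 3.23%, 7.74% and 3.23% in Zfp windows and 1.55%, 6.02% and 4.46% in all windows. A match is a description of letters, and neighbouring or duplicated genes can share them. The Zfp genes were picked by their FPKM, while the windows of all genes were not. Windows of other genes picked by FPKM were not compared, so these differences are not shown to be particular to Zfp genes.

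Apigenin alone lowered most Zfp genes. A gene was called where edgeR's quasi-likelihood test gave an adjusted p (Benjamini-Hochberg over the 12025 tested genes) under 0.05 with a log2FC of at least 1 in size. Between WT + apigenin and WT non-treated, 93 of the 150 genes were called lower and 1 higher, where 22.2% of all tested genes were called lower and 13.1% higher. The median log2FC was -1.73 for the Zfp genes and -0.02 for all tested genes, and 142 of the 150 had a log2FC below 0. The 3 apigenin libraries lay below all 3 non-treated libraries in 116 genes, where the share of all tested genes was 32%.

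Because the rule used the same libraries, this count is a description and not a test of the group. Among the 6333 tested genes with a mean FPKM in the range of the Zfp genes (their 5th to 95th percentile, 0.962 to 7.67), 27.6% were called lower and the median log2FC was -0.30. Zfp genes picked on the CD38KO libraries alone, by an FPKM of 1 or more in 3 or more of the 6, numbered 167, of which 104 (62.3%) were called lower and 1 higher, against 23.3% lower of all 10506 genes that met that level. Those CD38KO libraries entered neither side of the apigenin comparisons. The 54 tested Zfp genes that missed the rule had 33 called lower and 0 higher by edgeR, with a median log2FC of -2.08. Of all tested genes 22.2% were called lower. Those 54 entered the test by an FPKM of 1 in 3 or more libraries. A gene lost with apigenin can meet that level too, so this count is also a description.

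The same held under MSU. Between WT + MSU + apigenin and WT + MSU, 99 Zfp genes were called lower and 4 higher, where 25.8% of all tested genes were lower and 18% higher. The median log2FC was -1.87, against -0.05 for all tested genes and -0.34 for those in the same FPKM range. In 115 genes the apigenin libraries lay below all WT + MSU libraries, where the share of all tested genes was 36%. Of the 167 Zfp genes picked on CD38KO libraries, 108 were lower and 5 higher, against 26.8% lower and 18.8% higher of all 10506 genes that met that level. WT replicates 1 and 2 gave 94 lower alone and 95 lower under MSU, and replicate 3 alone, with 1 library in each WT group, gave 61 and 70.

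**Figure D1:**
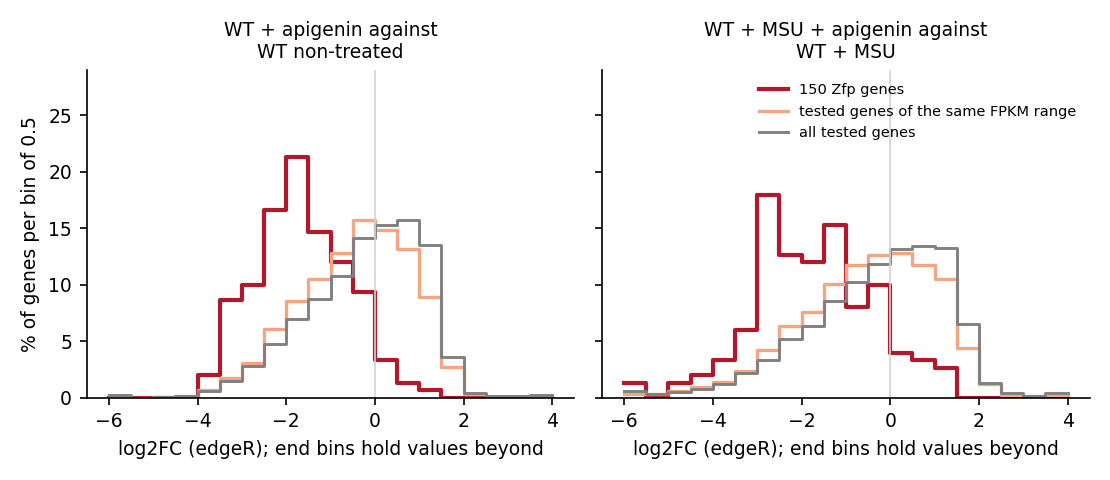
Distribution of log2FC (x axis, bins of 0.5) as the percentage of genes (y axis) for the 150 Zfp genes, for tested genes of the same FPKM range and for all 12025 tested genes, in both apigenin comparisons. The Zfp genes centre at -1.73 and -1.87, and all tested genes at -0.02 and -0.05.

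The apigenin comparisons share no library. Of the genes called lower, 85 were lower in both, which was 91.4% of those lower alone and 85.9% of those lower under MSU. This overlap was not counted over all tested genes, so it is not shown to be particular to Zfp genes. Only Zfp106 was higher in both, 0 genes were called in opposite directions, and 39 were called in neither. Across the 150 genes the log2FC values of the comparisons had a Pearson r of 0.82 and a Spearman rho of 0.87, and over all tested genes the Pearson r was 0.82, so the likeness was no closer among Zfp genes. Genes are not independent replicates, and these values are a description.

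**Figure D2:**
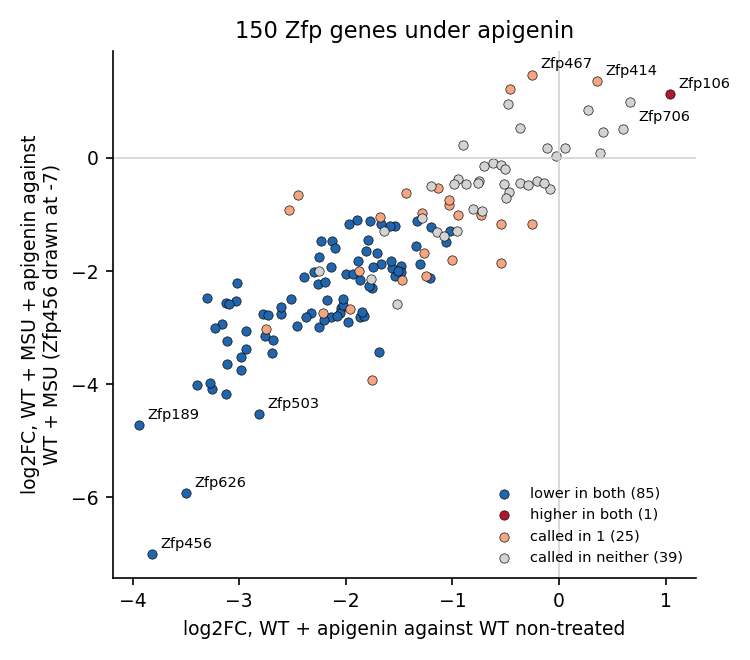
Log2FC of each of the 150 Zfp genes for apigenin alone (x axis) and under MSU (y axis), coloured by call. Zfp456, with no count in WT + MSU + apigenin, is drawn at the lower edge. The 85 genes lower in both fill the lower left, and Zfp106 is the 1 gene higher in both, a call that was not made when libraries were scaled by total counts alone.

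Together the 150 genes made up 0.0904% to 0.129% of each apigenin library and 0.221% to 0.360% of every other library. These shares use the libraries of the rule and are a description. In 83 genes all 6 apigenin libraries lay below all 12 others, where this held for 20.2% of all tested genes. TMM scaling sets the apigenin libraries (factors of 0.667 to 0.837) apart from the others (1.06 to 1.31). Scaling by library totals alone moved the median log2FC of all tested genes to -0.71 alone and -0.76 under MSU, and the distance of the Zfp median from it was -1.71 and -1.81, against -1.70 and -1.82 with TMM.

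**Figure D3:**
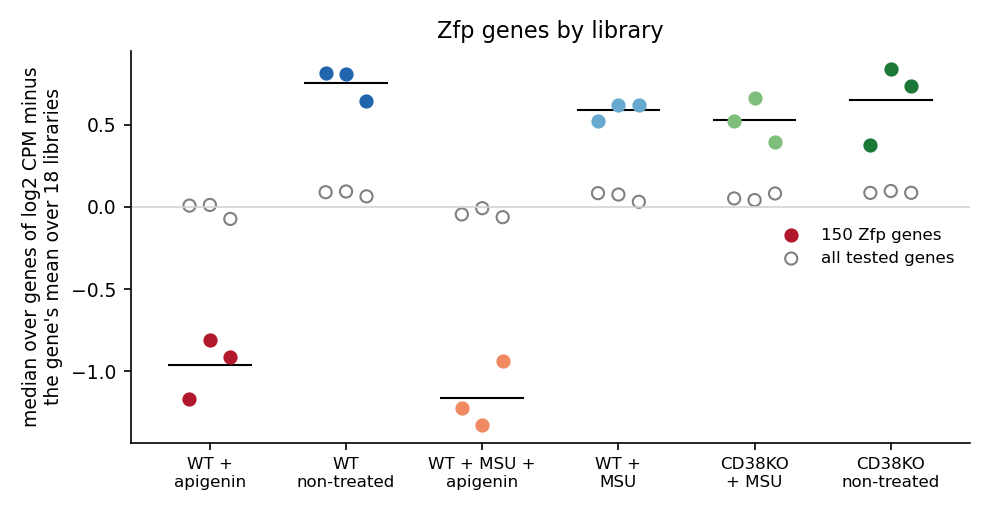
Median deviation of log2 CPM from each gene's mean over the 18 libraries (y axis), for the 150 Zfp genes (filled) and the 12025 tested genes (open), 1 point per library with the group mean as a line. The apigenin libraries sit between -1.33 and -0.81, and the other 12 between 0.38 and 0.84.

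The largest falls came to low CPM values, down to 0 in some libraries. Zfp189, a zinc finger gene linked to stress resilience in mouse prefrontal cortex, had 0, 0.760 and 0.342 CPM in WT + apigenin, against 5.94, 4.94 and 6.07 CPM in WT non-treated. Under MSU it had 0, 0.0831 and 0.350 CPM in WT + MSU + apigenin, against 3.69, 4.17 and 4.17 CPM in WT + MSU. The groups did not overlap in either comparison. Its log2FC was -3.94 ± 0.97 (SE) alone and -4.72 ± 1.04 under MSU, with adjusted p of 0.00389 and 0.00134 by edgeR. Neither CD38KO group came near these levels, with a lowest value of 4.26 CPM.

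Zfp626 and Zfp59, neighbours on chromosome 7 that both code for a KRAB motif, fell together. Zfp626 had 0.547, 1.54 and 0.811 CPM in WT + apigenin, against 10.5, 9.36 and 13.0 CPM in WT non-treated. With MSU it had 0, 0 and 0.311 CPM in WT + MSU + apigenin, against 7.51, 6.65 and 6.20 CPM in WT + MSU. The log2FC of Zfp626 was -3.50 ± 0.75 alone and -5.92 ± 0.89 under MSU (edgeR adjusted p of 0.00152 and 5.99e-05). Zfp59 had 0.383, 0.0724 and 1.23 CPM in WT + apigenin, against 4.25, 6.27 and 6.05 CPM in WT non-treated. Its log2FC was -3.30 ± 0.69 alone (edgeR adjusted p of 0.00125), and 28.5% of its transcript windows of 100 bases also occur in another gene, so its counts are uncertain.

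Zfp456, a KRAB zinc finger gene in the cluster on chromosome 13, had no count in any of the 3 WT + MSU + apigenin libraries, against 6.08, 4.79 and 4.44 CPM in WT + MSU. Taking 3 counts over the group as the floor, it was at least 232-fold lower, and edgeR gave an adjusted p of 1.54e-04. With apigenin alone it had 0.146, 1.05 and 0 CPM, against 7.20, 6.73 and 2.97 CPM in WT non-treated, a log2FC of -3.82 ± 1.01 (edgeR adjusted p of 0.00709). It was 1 of the genes just inside the rule, with an FPKM of at least 1 in exactly 9 libraries.

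Zfp553 had 0.420, 1.01 and 1.03 CPM in WT + apigenin, against 8.56, 9.65 and 7.65 CPM in WT non-treated. Its log2FC was -3.39 ± 0.51 alone (edgeR adjusted p of 9.73e-05). Zfp62, which codes for 25 finger motifs, had 1.59, 2.06 and 1.10 CPM in WT + apigenin, against 2.39, 25.5 and 18.02 CPM in WT non-treated. Replicate 1 of the non-treated group thus lay close to the apigenin libraries, although the groups did not overlap. Its log2FC was -3.27 ± 0.62 (edgeR adjusted p of 6.09e-04).

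Under MSU the list of the lowest genes also held Zfp503, Zfp866 and Zfp213. Zfp503 (Nolz1), a developmental corepressor of striatum and limb, had 0.215, 0.228 and 0.486 CPM in WT + MSU + apigenin, against 5.72, 10.1 and 5.89 CPM in WT + MSU, with a log2FC of -4.52 ± 0.55. For Zfp866 the log2FC was -4.18 ± 0.55 and for Zfp213 -4.09 ± 1.11. The edgeR adjusted p of these genes were 9.96e-06, 2.10e-05 and 0.00553. In none of the 3 did the groups overlap.

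**Figure D4:**
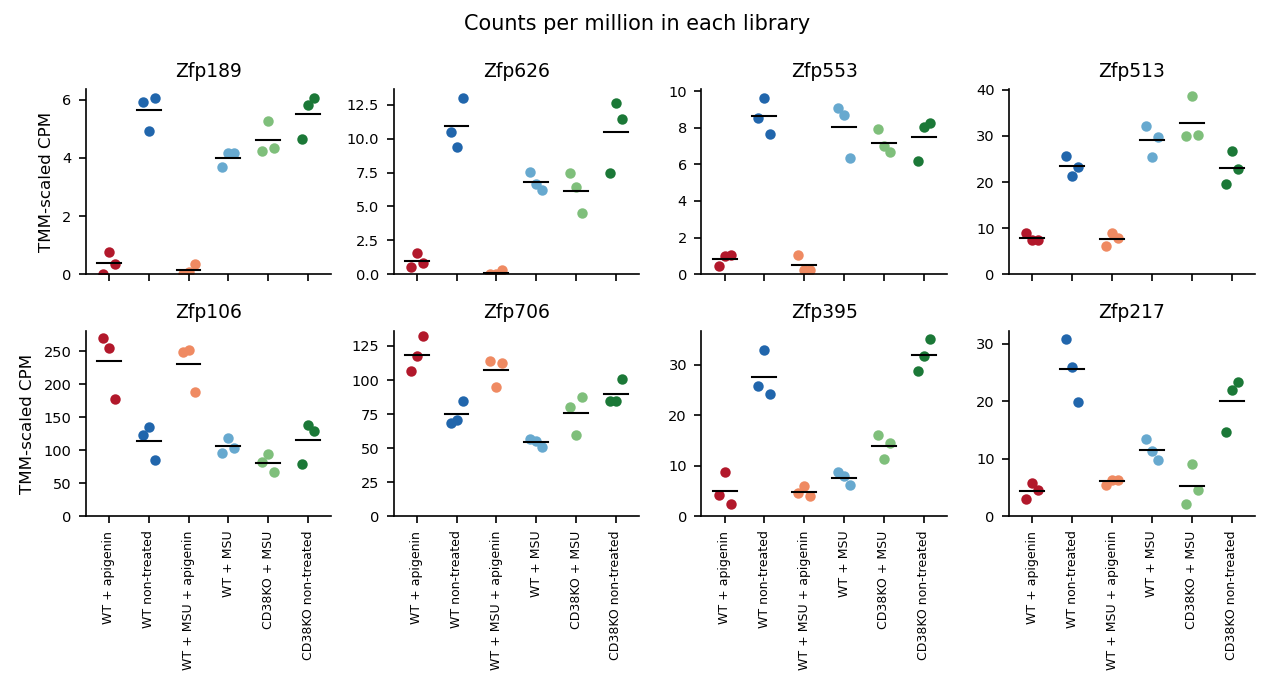
TMM-scaled CPM (y axis, each from 0) of 8 Zfp genes in the 18 libraries, 1 point per library with the group mean as a line. Zfp189, Zfp626, Zfp553 and Zfp513 are low in both apigenin groups, Zfp106 and Zfp706 are high there on this scale, and Zfp395 and Zfp217 are also low with MSU.

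The most expressed Zfp genes were less uniform. By mean FPKM over the 18 libraries the 5 highest were Zfp706 (15.4), Zfp106 (12.1), Zfp91 (10.8), Zfp207 (10.5) and Zfp513 (8.27), where the median of the 150 was 1.92. That mean includes the apigenin libraries, so genes that did not fall were favoured, and the smaller falls here are partly built in. The order of Zfp91 and Zfp207 is uncertain, since their mean FPKM differed by less than the spread of either over the libraries. Zfp513, a transcription factor linked to the retina in human, was called lower: it had 9.03, 7.36 and 7.33 CPM in WT + apigenin, against 25.7, 21.2 and 23.2 CPM in WT non-treated (log2FC -1.56 ± 0.19, edgeR adjusted p of 1.94e-05). Under MSU its log2FC was -1.94 ± 0.19. Zfp207 (BuGZ), which binds Bub3 at the spindle, had a log2FC of -0.47 ± 0.25 alone and -0.60 ± 0.25 under MSU. Zfp91, an E3 ubiquitin ligase of the NF-kB pathway in human cells, had -0.29 ± 0.12 and -0.47 ± 0.12. In both comparisons the apigenin libraries lay below the others for Zfp91 (edgeR adjusted p of 0.0606 alone and 0.00461 under MSU). For Zfp207 they overlapped. Neither Zfp207 nor Zfp91 reached the fold required for a call.

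Zfp106, an RNA-binding protein that mice need for motor neurons and muscle, was the 1 gene called higher with apigenin alone. It had 270.4, 255 and 178 CPM in WT + apigenin, against 123, 134 and 85.5 CPM in WT non-treated, with no overlap (log2FC 1.04 ± 0.24, edgeR adjusted p of 0.00222). Under MSU it had 249, 252 and 188 CPM in WT + MSU + apigenin, against 96.2, 118 and 103 CPM in WT + MSU (log2FC 1.12 ± 0.24, edgeR adjusted p of 9.73e-04). Both calls rested on the scaling, since the log2FC was 0.36 alone and 0.42 under MSU with library totals, and the call alone was lost without WT + apigenin replicate 1 (0.92), WT + apigenin replicate 2 (0.97) or WT non-treated replicate 3 (0.87). Zfp706, a small protein of 76 residues that limits self-renewal of mouse embryonic stem cells, had a log2FC of 0.67 ± 0.15 alone and 0.98 ± 0.15 under MSU with TMM, and -0.03 alone with library totals.

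Under MSU 3 further genes were called higher. Zfp467 (EZI), which turns mouse marrow progenitors towards fat cells, had 8.28, 11.96 and 5.64 CPM in WT + MSU + apigenin, against 4.52, 1.02 and 3.81 CPM in WT + MSU (log2FC 1.47 ± 0.55, edgeR adjusted p of 0.0323). The numbers pair the WT libraries in this comparison, and with the replicate block its log2FC was 1.43 and it was no longer called. It was also lost, among others, without WT + MSU + apigenin replicate 1, where the log2FC was 1.498 and the adjusted p was above the threshold, WT + MSU + apigenin replicate 2 (1.16) or WT + MSU replicate 2 (1.05). Zfp414 had 19.0, 23.7 and 15.9 CPM, against 9.42, 6.45 and 7.10 CPM in WT + MSU (log2FC 1.35 ± 0.20, edgeR adjusted p of 5.91e-05), with 42.0% of its transcript windows shared with another gene. Of 31 alternatives, 11 ended the call of Zfp467, 12 that of Zfp580 and 4 that of Zfp414. Zfp580 had 3.39, 6.33 and 2.20 CPM, against 1.58, 2.01 and 1.52 CPM in WT + MSU (log2FC 1.22 ± 0.46, edgeR adjusted p of 0.0341), and it lost the call, among others, without WT + MSU + apigenin replicate 2 (0.71) or any 1 of the WT + MSU libraries (1.14 to 1.36). With library totals the 3 values were 0.80, 0.65 and 0.53, and none was called. With apigenin alone Zfp467, Zfp414 and Zfp580 had log2FC of -0.25 ± 0.54, 0.35 ± 0.20 and -0.46 ± 0.46, and the interaction of MSU and apigenin was called for none of them by edgeR.

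The genes were also ordered by their known roles, in lists chosen with earlier results of these data known. Their counts are read beside all tested genes, of which 22.2% were lower and 13.1% higher alone, and 25.8% lower and 18% higher under MSU. Of 9 Zfp genes with roles in RNA, ribosomes or the cytoplasm, 3 were lower and 1 higher alone, and 4 lower and 1 higher under MSU (medians of -0.29 and -0.60), which is close to those shares. Zfp598, the E3 ligase that marks collided ribosomes, had log2FC of -0.14 ± 0.26 and -0.44 ± 0.26, and Zfp622, a factor of 60S ribosome assembly, 0.06 ± 0.34 and 0.17 ± 0.34. Zfp638, an RNA-binding protein that recruits the HUSH silencing complex to viral DNA, had 7.24, 9.33 and 5.94 CPM in WT + apigenin, against 36.7, 27.7 and 28.3 CPM in WT non-treated (log2FC -2.04 ± 0.27, edgeR adjusted p of 3.20e-05). Zfp830, a splicing factor, and Zfp318, which sets the splicing of IgD in B cells, were also lower in both comparisons.

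Of 13 genes with roles in chromatin and general transcription, 10 were lower alone and 8 under MSU, and 0 higher by edgeR in either (medians of -1.33 and -1.18), beside 22.2% and 25.8% lower of all tested genes. Zfp516, a driver of brown fat genes in mice, had 8.63, 8.43 and 3.73 CPM in WT + apigenin, against 40.1, 40.6 and 27.3 CPM in WT non-treated (log2FC -2.38 ± 0.32, edgeR adjusted p of 4.08e-05). Zfp143, an activator that binds many promoters, had log2FC of -1.76 ± 0.42 alone and -2.29 ± 0.42 under MSU. Zfp644, a partner of the histone methyltransferases G9a and GLP, had -1.74 ± 0.29 and -1.93 ± 0.29. Zfp384 and Zfp592 were called in neither comparison, nor was Zfp219, whose log2FC was 0.28 ± 0.23 alone and 0.85 ± 0.23 under MSU.

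Of the genes that silence retroelements or guard imprints, Zfp809 and Zfp445 met the rule and both were lower in both comparisons. Zfp809, which in mouse embryonic stem cells binds the primer binding site of retroviruses, had 0.949, 2.39 and 0.793 CPM in WT + apigenin, against 5.16, 6.39 and 5.32 CPM in WT non-treated (log2FC -2.03 ± 0.45, edgeR adjusted p of 0.00200). Zfp445, which protects imprinted regions, had 9.43, 5.41 and 3.73 CPM in WT + apigenin, against 32.5, 35.1 and 24.0 CPM in WT non-treated (log2FC -2.30 ± 0.74, edgeR adjusted p of 0.0179). In WT + MSU it had 1.05 CPM in replicate 1 and 32.4 and 26.9 CPM in the others, so that the groups under MSU overlapped. Zfp568, which represses a placental Igf2 transcript, missed the rule and had a log2FC of -2.39 ± 0.51 alone and -3.16 ± 0.53 under MSU.

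The cofactors of KRAB proteins were called lower about as often as all tested genes, and called higher less often. Of all tested genes 22.2% were lower and 13.1% higher alone, and 25.8% and 18% under MSU (medians of -0.02 and -0.05). Of 28 tested genes of the Trim28 pathway and heterochromatin, 7 were lower and 0 higher by edgeR alone (median of -0.61). Under MSU 8 of these 28 were lower and 1 higher (median of -0.60). Those lower in both included Fam208a (Tasor), the core of the HUSH complex, at -2.48 ± 0.33 and -2.52 ± 0.34, the histone chaperone Daxx at -2.24 ± 0.39 and -3.33 ± 0.40, and the histone methyltransferase Setdb1 at -1.85 ± 0.27 and -1.25 ± 0.27. The histone methyltransferase Ehmt2 (G9a) was the 1 gene higher under MSU, at 1.03 ± 0.17. For other zinc finger families the same FPKM rule was applied, which 10389 genes met, 22.3% of them lower alone and 25.8% under MSU. Of 28 Zbtb genes at the same FPKM level, a list that includes the antisense gene Zbtb11os1, 16 were lower alone and 17 under MSU (medians of -1.80 and -1.99), and of 11 Zscan and Zkscan genes 9 were lower in each (medians of -2.70 and -2.43).

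Lists of messages known for short or long lifetimes were set beside these counts. Of 25 short-lived transcripts, 14 were lower alone and 15 under MSU, and 0 higher by edgeR (medians of -1.67 and -1.82), where 22.2% and 25.8% of all tested genes were lower, among them Bcl6 at -2.92 ± 0.33 and -4.19 ± 0.35 and Mcl1 at -2.70 ± 0.46 and -3.50 ± 0.48. Of 20 stable housekeeping transcripts, 13 were higher alone and 11 under MSU (medians of 1.32 and 1.11), where 13.1% and 18% of all tested genes were higher, with the elongation factor Eef1a1 at 1.45 ± 0.14 and 1.29 ± 0.14. These higher calls rest on TMM, since library totals lower the median of all tested genes as given above. The part of transcript lifetime in the change of the Zfp genes was not tested.

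By what the genes encode, read from GENCODE M21 transcripts, the share called lower increased with the number of finger motifs. The motif (cysteines and histidines at C2H2 spacing) was found in 146 of the 150 genes, with a median of 9 and at most 30, in Zfp236. Among genes with 4 or fewer, 16 of 34 were lower alone and 16 under MSU, among those with 5 to 9, 28 and 31 of 48, and among those with 10 or more, 49 and 52 of 68. In the same order the median log2FC was -1.14, -1.62 and -1.96 alone, and -1.14, -1.73 and -2.22 under MSU. Over the 150 genes the Spearman rho between finger motifs and log2FC was -0.30 alone and -0.31 under MSU, and that between mean FPKM and log2FC was 0.40 and 0.28. Mean FPKM includes the apigenin libraries, so a gene that fell has a lower mean, and the values for mean FPKM are partly built in. A KRAB motif was found in 61 genes, of which 42 were lower alone and 44 under MSU and 0 were higher by edgeR. Of the 89 without it 51 and 55 were lower, with 1 and 4 higher. Of the 75 genes at or below the median mean FPKM 56 were lower alone, against 37 of the 75 above it, a split with the same limit. Which of level, fingers and KRAB went with the change was not tested.

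**Figure D5:**
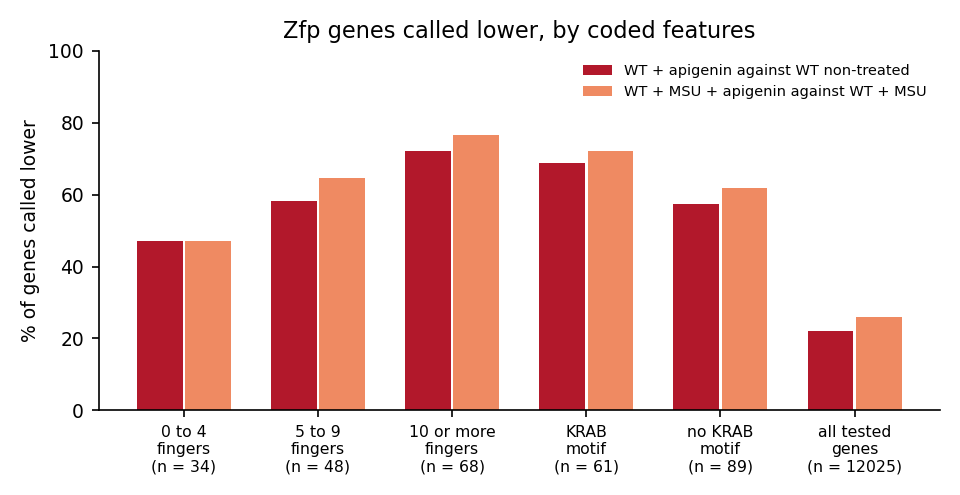
Percentage of genes called lower (y axis, from 0 to 100) in each apigenin comparison, for Zfp genes by number of finger motifs and by KRAB motif, and for all tested genes. With 4 or fewer fingers 16 of 34 genes were lower alone, with 5 to 9 fingers 28 of 48 and with 10 or more 49 of 68.

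The genes lie on 20 chromosomes, with 33 on chromosome 7, 19 on 17, 14 on 8 and 11 on 13, and 44 of the 61 genes with a KRAB motif lie on these 4. Of all Zfp genes there, 20 and 23 were lower (alone and under MSU) on chromosome 7, 15 and 14 on 17, 9 and 11 on 8, and 7 and 9 on 13. On chromosome 4 fewer were lower, 2 of 8 in each comparison, with a median of -0.49 alone. Other chromosomes with few genes were low too, such as chromosome 15 with 1 of 5 lower alone and 2 under MSU. Chromosome 4 holds Zfp189, described above. It also holds Zfp991, Zfp992 and Zfp993, whose log2FC alone were -0.03 ± 0.38, 0.42 ± 0.42 and 0.39 ± 0.35. Of their transcript windows of 100 bases 73.8%, 28.6% and 71.9% also occur in another gene, so their counts are uncertain. Over the 150 genes 117 shared no such window and 15 shared more than 10%.

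MSU, in contrast, had few Zfp genes called. Between WT + MSU and WT non-treated 1 was called lower and 0 higher by edgeR, where 3.58% of all tested genes were called in either direction. The WT + MSU libraries lay below all WT non-treated libraries in 39 of the 150 genes (26%) and above them in 14 (9.33%). Over all tested genes these shares were 16.6% and 14.8%. The median log2FC was -0.12, against -0.03 for all tested genes. The rule used these libraries, so these values are a description. WT non-treated and WT + MSU also serve as the reference of the apigenin comparisons, so the values are given side by side. Zfp395, which binds the huntingtin promoter in human cells, had 8.81, 7.91 and 6.18 CPM in WT + MSU, against 25.9, 32.8 and 24.2 CPM in WT non-treated (log2FC -1.86 ± 0.36, edgeR adjusted p of 0.00736). With apigenin alone it had 4.12, 8.72 and 2.34 CPM, and 4.55, 5.94 and 4.05 CPM with apigenin under MSU, so it was low in all 3 treated WT groups. In CD38KO it had 16.01, 11.2 and 14.5 CPM with MSU, against 28.9, 31.8 and 35.1 CPM without, a log2FC of -1.20 ± 0.35 that was not called. DESeq2 called Zfp395 lower and Zfp948 higher.

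Between CD38KO + MSU and CD38KO non-treated 1 gene was called lower and 0 higher by edgeR, where 2% of all tested genes were called. Zfp217, a partner of the CoREST corepressor that is amplified in human breast cancer, had 2.09, 9.02 and 4.53 CPM in CD38KO + MSU, against 14.6, 22.0 and 23.3 CPM in CD38KO non-treated (log2FC -1.94 ± 0.41, edgeR adjusted p of 0.0207). The call was lost without CD38KO + MSU replicate 3 (-1.80) and without CD38KO non-treated replicate 2 (-1.86) or 3 (-1.81). It was also lost when only the CD38KO libraries were fitted (-1.92) and with WT replicate 3 only (-1.94), where Zfp395 and Zfp74 were called instead. In WT it had 13.3, 11.4 and 9.68 CPM with MSU, against 30.8, 25.9 and 19.8 CPM without, which did not overlap and were not called (log2FC -1.15 ± 0.40, edgeR adjusted p of 0.104). DESeq2 called 4 genes, with Zfp395 and Zfp74 also lower and Zfp593 higher.

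In apigenin-treated WT cells MSU changed 0 Zfp genes by edgeR, where 0.0582% of all tested genes were called. At an unadjusted p under 0.05 there were 12, where the share of all tested genes was 6.18%, and DESeq2 called 3. Zfp653, a repressor of the nuclear receptor SF-1 in human cells, had 4.09, 4.24 and 3.95 CPM in WT + MSU + apigenin, against 2.30, 1.77 and 1.62 CPM in WT + apigenin (log2FC 1.11 ± 0.25, edgeR adjusted p of 0.177). Zfp456 was next by p, with 0 counts in WT + MSU + apigenin, against 0.146, 1.05 and 0 CPM in WT + apigenin, which overlap at 0 (edgeR adjusted p of 0.306).

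CD38KO differed from WT in 0 Zfp genes by edgeR, with and without MSU. Without MSU 4.32% of all tested genes were called, and 1 Zfp gene had an unadjusted p under 0.05, where the share of all tested genes was 14.4%. That was Zfp593, a ribosome assembly factor, with 6.20, 5.25 and 4.77 CPM in CD38KO non-treated, against 7.36, 8.72 and 7.82 CPM in WT non-treated (log2FC -0.56 ± 0.26, edgeR adjusted p of 0.336). The next, Zfp777, had a log2FC of -0.46 ± 0.22 (edgeR adjusted p of 0.375), and DESeq2 called 0. The median log2FC of the Zfp genes was -0.02, against 0.04 over all tested genes.

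With MSU 3.37% of all tested genes were called, and 10 Zfp genes had an unadjusted p under 0.05, where the share of all tested genes was 20.2%. Zfp74 had 1.09, 0.769 and 0.421 CPM in CD38KO + MSU, against 5.33, 6.59 and 7.44 CPM in WT + MSU. The groups did not overlap, and the log2FC was -3.08 ± 0.89 with an edgeR adjusted p of 0.0642. CD38KO non-treated cells had 5.87, 8.09 and 8.10 CPM, so among cells without apigenin it was low only in the 3 CD38KO + MSU libraries (log2FC -3.27 ± 0.90 against CD38KO non-treated, edgeR adjusted p of 0.0629), and WT non-treated cells had 7.22, 9.03 and 7.16 CPM. Apigenin-treated WT cells were low as well, with 1.42, 2.17 and 1.57 CPM. Zfp74 was called lower in CD38KO + MSU by DESeq2 and was the 1 gene that DESeq2 called. Zfp706 had 80.0, 59.4 and 87.3 CPM in CD38KO + MSU, against 56.5, 55.4 and 51.0 CPM in WT + MSU (log2FC 0.48 ± 0.15, edgeR adjusted p of 0.0916).

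The interactions named 0 Zfp genes by edgeR. For MSU with apigenin 1.05% of all tested genes were called, and 18 Zfp genes had an unadjusted p under 0.05, where the share of all tested genes was 14.1%. Zfp524 had 18.05, 14.6 and 11.5 CPM in WT + MSU + apigenin, against 7.66, 7.58 and 7.42 CPM in WT + MSU, and 10.1, 11.4 and 7.98 CPM in WT + apigenin, against 10.8, 12.4 and 17.8 CPM in WT non-treated. Its interaction was 1.44 ± 0.36 (edgeR adjusted p of 0.0594), and 43.6% of its transcript windows are shared with another gene. For Zfp395 the interaction was 1.79 ± 0.50 (edgeR adjusted p of 0.0964), and DESeq2 called 5 genes, 3 with a positive and 2 with a negative interaction. For MSU with CD38KO 0% of all tested genes were called, 2 Zfp genes had an unadjusted p under 0.05, where the share of all tested genes was 3.55%, and DESeq2 called 0. These were Zfp74 (-3.00 ± 1.19) and Zfp938 (1.03 ± 0.45), both with an edgeR adjusted p of 1. A difference that was not called does not show that the genes act alike with and without MSU or CD38.

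At the edge of the rule, 11 genes had an FPKM of at least 1 in exactly 9 libraries (Zfp59, Zfp74, Zfp251, Zfp317, Zfp369, Zfp456, Zfp609, Zfp668, Zfp719, Zfp772 and Zfp821) and 10 in exactly 8 (Zfp160, Zfp451, Zfp469, Zfp523, Zfp560, Zfp566, Zfp865, Zfp932, Zfp953 and Zfp959). Inside, no apigenin library reached an FPKM of 1 for any of the 11. Just outside, Zfp523 reached it in 2 apigenin libraries and the other 9 genes in 0. Mean FPKM over the 18 libraries was 0.766 (Zfp74) to 1.21 (Zfp317) inside and 0.820 (Zfp160) to 1.48 (Zfp959) outside. Of all 373 symbols, 149 reached an FPKM of 1 in no library and 24 in all 18. Fitted with no filter on low values, 354 had counts, of which 163 were lower and 1 higher alone, and 172 lower and 4 higher under MSU. Of all 25909 genes in that fit 11.1% were lower and 5.45% higher alone, and 13.8% and 7.65% under MSU.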

How the data were processed

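Poly(A) RNA of 18 BMDM libraries was made into stranded libraries and sequenced by a service company. For every gene of each library the files deposited by the authors hold 1 count and 1 FPKM value. Tools listed in the submitters' processing notes, with no version, are HISAT2, StringTie, edgeR, FastQC and cutadapt. The genome build was not given in the sources used here. All 55450 gene IDs match GENCODE M21, which gave positions and coding sequence. A second deposited table holds the authors' own log2 ratios of selected genes and was not used. The Zfp genes, the gene lists and the tests were chosen with earlier results of these data known.

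The 12025 genes that reached an FPKM of 1 in 3 or more libraries were fitted with edgeR 4.0.16 in R 4.3.3 (TMM, quasi-likelihood, 6 groups in 1 fit), tested on simulated data first. P-values were adjusted by Benjamini-Hochberg over all of them, and the SE is the log2FC divided by the square root of F. The p-values measure the spread between 3 replicates per group. Total counts of 51058336 to 83209648 limit the precision of genes near 0 counts. Alternatives were DESeq2 1.42.0, limma 3.58.1 on log2(FPKM + 0.5) and log2(FPKM + 0.1), other scalings and filters, single libraries left out, the treatment tag in place of titles, WT replicates 1 and 2 or 3 alone, and the replicate block.

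Deviations of same-numbered libraries from their group means had correlations of 0.231 to 0.556 for apigenin alone. They were 0.130 to 0.392 for apigenin under MSU and 0.176 to 0.548 for MSU with apigenin. For apigenin under MSU each exceeded the values of different numbers, so the numbers pair those WT libraries from the data alone. For apigenin alone replicates 1 and 2 reached 0.329 with each other, and for MSU with apigenin 0.283. Replicate 3 against these was negative in both. There the numbers set replicate 3 apart and do not pair replicates 1 and 2. For MSU in WT the lowest same-numbered value was 0.094, and replicates 1 and 2 reached 0.320 with each other. Replicate 3 against these was negative there as well, so it too was set apart. For the CD38KO comparisons the same-numbered values lay between -0.206 and 0.261, so the numbers do not pair those.

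Genes were named by a rule: in each apigenin comparison the 6 largest and 6 smallest log2FC among called genes without overlap between groups, elsewhere up to 5 called genes in each direction or the 2 smallest p, the 5 highest mean FPKM, up to 4 called genes of each list, and the genes at the edge of the FPKM rule. Other genes named were chosen after their values were seen. Protein sequences were not used here. The result of 1 housekeeping gene is not reported here.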

Additional observations from a re-analysis of the deposited data

How the results depend on the processing

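Calls under apigenin held in number under most alternatives. Fits without 1 library at a time called 83 to 101 Zfp genes alone, against 94 with all libraries, and 88 to 104 under MSU, against 103. With WT replicate 3 only, which leaves 1 library in each WT group and assumes that it varies like the CD38KO libraries, 61 were called alone and 72 under MSU. The median log2FC stayed between -2.42 and -1.51 alone and between -2.57 and -1.50 under MSU. Library totals without scaling gave 125 lower and 0 higher by edgeR alone and 122 and 0 under MSU, and the lower share of all called genes was then 97.2% and 93.2%, against 62.9% and 58.9% with TMM. The single-digit counts moved more. For MSU in WT, 1 gene became 2 with library totals, the replicate block, WT replicates 1 and 2 only, DESeq2, limma on log2(FPKM + 0.1) or no fold threshold, 3 with the compared groups alone or limma on log2(FPKM + 0.5), and 0 with WT replicate 3 only, where 1 library per group limits the edgeR test. For MSU in CD38KO, the count of 1 (Zfp217) was 2 with median-of-ratios factors, the compared groups alone, either WT replicate set or limma on log2(FPKM + 0.1), 3 with limma on log2(FPKM + 0.5) and 4 with DESeq2. With the compared groups alone and with WT replicate 3 only these were Zfp395 and Zfp74, without Zfp217. For MSU with apigenin, 0 by edgeR became 2 with WT replicates 1 and 2 only and 3 with DESeq2. CD38KO against WT non-treated became 2 with WT replicates 1 and 2 only, and under MSU 1 with that set, DESeq2 or either limma setting. The interaction of MSU and apigenin became 1 with the treatment tag or limma on log2(FPKM + 0.5), 2 with WT replicates 1 and 2 only and 5 with DESeq2. Leaving out 1 library gave 1 to 2 genes for MSU in WT, 0 to 2 for MSU in CD38KO, 0 to 3 for MSU with apigenin, 0 to 1 for CD38KO under MSU, 0 to 5 for the interaction with apigenin, and 0 for the other CD38KO comparison and its interaction. The highest values for MSU with apigenin and for that interaction came without WT + MSU + apigenin replicate 3. The cause of these moves was not tested. Of 1147 values of named genes under alternatives, 1067 kept direction and side of the threshold and 5 reversed. Zfp706 under apigenin alone had a log2FC of -0.028 with library totals, -0.0092 with limma on log2(FPKM + 0.5) and -0.0094 with limma on log2(FPKM + 0.1). For MSU with apigenin, the treatment tag, which by construction exchanges the groups, gave -1.11 for Zfp653 and a fitted 7.84 for Zfp456, which has 1 group at 0 counts, so that this size is no bound. With the replicate block 97 genes were called alone and 103 under MSU, and the call of Zfp467 (1.43) was the 1 call of a named gene it changed. For MSU in WT, whose lowest pair correlation was 0.094, the block gave 2. Counts near 0 in the apigenin libraries limit the size of the largest falls.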
